A study of Mus musculus with 6 samples.

Results

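The complement components and receptors described here are 9 genes, C1qa, C1qb, C1qc, C1s, C3, Cfb, Cfp, C3ar1 and C5ar1, among 37074 gene names carried by the array. Each was taken by its gene name from the transcript spots of 6 arrays. Of the 9 names, 8 stood on the array as written, and C1s stood under its current mouse symbol C1s1, for which RefSeq lists C1s as a synonym. C1s1 is described beside the others and is left out of the counts unless it is named. All 9 genes were bright enough to be tested, together with 20645 genes in all.

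RNA came from osteoclasts grown from the bone marrow of 3 Ano1fl/fl mice and 3 littermate Ctsk-Cre;Ano1fl/fl mice, with RANKL, the cytokine that drives osteoclast formation, given for 5 days. For such cultures the methods give mice 6 to 8 weeks old. Both groups carry Ano1 flanked by loxP sites. Ano1 encodes a calcium-activated chloride channel, and the Ctsk-Cre;Ano1fl/fl mice also carry Cre recombinase driven by the cathepsin K gene, which osteoclasts switch on as they mature. Recombination by this driver therefore comes with differentiation and need not take place in the precursors that remain in the dish. The labels give the cell type as bone marrow cells. Separate mice stand behind the replicates, and their number, 3 in each group, limits the precision of every value. The comparison asks how the transcripts of complement genes differ between osteoclast cultures with and without the Cre driver.

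Complement is a cascade of blood and tissue proteins that tags particles for removal, calls in leukocytes and can pierce membranes. The classical branch starts with C1q, which binds antibody complexes and dying cells, and its proteases C1r and C1s. The alternative branch amplifies on surfaces through factor B and properdin, and both branches cleave C3 and C5 to release the anaphylatoxins read by C3ar1 and C5ar1. Macrophages are among the cells that make C1q and properdin, and osteoclasts arise from the same lineage.

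The arrays measured the members through 60-base probes, and those shown here are the probes behind the values of C1qa, C1qb, Cfb and Cfp and the second probes of C3, Cfb and Cfp. They identify what was hybridised, and no base is capitalised because none is singled out. Positions are those of the array files in mm9, and all of these genes lie on the minus strand. The C1qa probe lies at chr4:136452409-136452468 and the C1qb probe at chr4:136436578-136436637.
C1qa: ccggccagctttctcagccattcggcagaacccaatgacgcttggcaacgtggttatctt
C1qb: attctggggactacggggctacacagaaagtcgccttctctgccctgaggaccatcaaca
C3, second probe, chr17:57343678-57343737: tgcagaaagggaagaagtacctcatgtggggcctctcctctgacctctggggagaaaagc
Cfb, chr17:34993502-34993858: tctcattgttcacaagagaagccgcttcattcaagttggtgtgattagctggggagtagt
Cfb, second probe, chr17:34994617-34994676: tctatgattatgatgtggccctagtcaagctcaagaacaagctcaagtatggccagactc
Cfp, chrX:20502742-20502801: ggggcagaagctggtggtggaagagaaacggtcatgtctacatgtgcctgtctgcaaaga
Cfp, second probe, chrX:20504475-20504676: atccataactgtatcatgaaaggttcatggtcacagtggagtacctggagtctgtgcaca
The other probes behind the values lie at chr4:136445766-136445825 for C1qc, chr17:57343416-57343475 for C3, chr6:122798222-122798281 for C3ar1, chr6:124480775-124480834 for C1s1 and chr7:16832094-16832135 for C5ar1. The first Cfb probe covers 357 bases of the genome and the second Cfp probe covers 202, so both are interrupted there by sequence that the probe does not hold. The only C5ar1 probe is 60 bases long, but the array files place it on 42 bases of the genome. In all, 15 probes stood for the 9 genes, of which 12 were well above background on all 6 arrays and 2, both of C1s1, on none. For 12 of the probes the RefSeq accession matched the gene under which the array lists them, and the others, with predicted or Ensembl accessions, were not matched.

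Values are log2 processed signals after quantile normalization, so a difference of 1 is 2-fold. A probe's brightness depends on its sequence as well as on the transcript, and levels of different members are therefore not compared. A gene was called higher or lower where the adjusted p of limma, a linear model with moderated variances run over all tested genes, was under 0.05. Where RNA from a whole culture is lower for a gene, fewer cells of a type and less RNA per cell cannot be told apart.

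Ano1 itself has 1 probe on the array, which stayed at background on all 6, so the genotype labels could not be checked by it and every direction given here rests on them. Osteoclast genes such as Ctsk, Mmp9 and Acp5 gave higher signals in the samples that carry the Ctsk-Cre;Ano1fl/fl label, opposite to the direction that the study describes for them. Their values stand with the other cell markers further on.

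Of the 8 members found by name, 5 were lower in Ctsk-Cre;Ano1fl/fl osteoclasts by limma's adjusted p, namely the C1q chains C1qa, C1qb and C1qc, properdin (Cfp) and the C5a receptor C5ar1. Lower calls made up 29.0% of all genes tested, higher calls 23.4%, and calls in either direction 52.4%. None of the 8 was higher, either by limma at an unadjusted p under 0.05 or by the methods' t-test, and 6 were lower at that unadjusted p. C3, factor B (Cfb) and the C3a receptor C3ar1 did not pass the threshold. The median difference of the 8 genes was -0.43 on the log2 scale, and -0.42 with C1s1, beside -0.06 for the whole set of tested genes. For 7 of the 8 genes the highest value of one group lay below the lowest of the other, as it did for 64.0% of all genes. A single member, C5ar1, passed the test and differed by more than 2-fold, as 17.1% of all genes did.

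**Figure D1:**
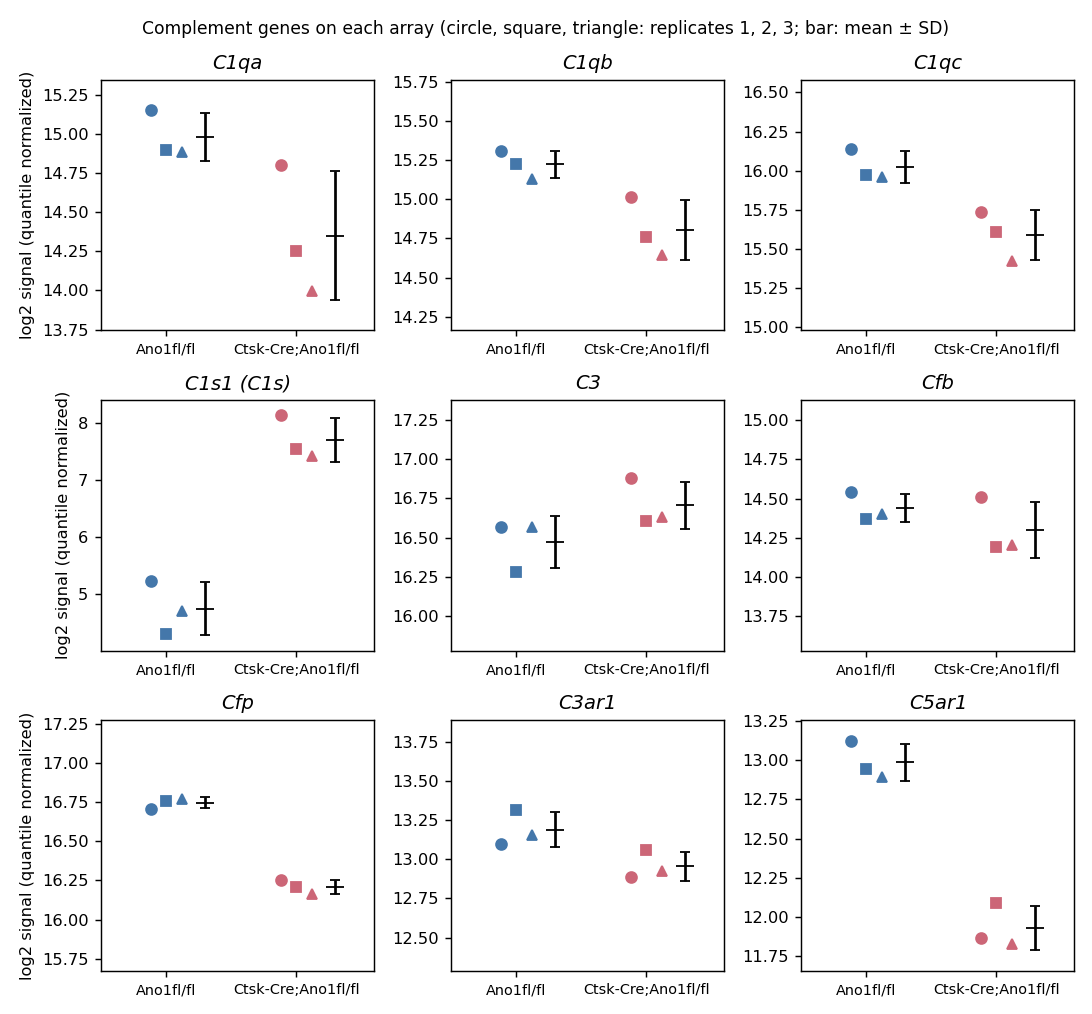
Quantile normalized log2 signal of the brightest probe of each of the 9 complement genes (vertical axes, with a different range for each gene and a wider one for C1s1) on the 3 Ano1fl/fl arrays (blue) and the 3 Ctsk-Cre;Ano1fl/fl arrays (red), with the mean and SD in black. Points of the groups overlap in a single panel, that of Cfb.

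C1qa, C1qb and C1qc encode the A, B and C chains of C1q, which assemble into the recognition molecule of the classical branch. The 3 genes lie side by side on chromosome 4. C1qa read 15.15, 14.90 and 14.88 log2 signal in Ano1fl/fl and 14.80, 14.25 and 14.00 in Ctsk-Cre;Ano1fl/fl cells. The groups were separate, but Ctsk-Cre;Ano1fl/fl replicate 1 lay close to the Ano1fl/fl arrays and the spread in its group was wide (SD 0.41, n = 3). Its log2 difference was -0.63 (SE 0.21, 95% interval -1.15 to -0.11) with an adjusted p of 0.0474 by limma. This call depended on single arrays. Without Ano1fl/fl replicate 1 the difference was -0.54 (adjusted p = 0.130 by limma), without replicate 2 it was -0.67 (0.0921) and without replicate 3 it was -0.68 (0.0837). Without Ctsk-Cre;Ano1fl/fl replicate 2 it was -0.58 (adjusted p = 0.119 by limma) and without replicate 3 it was -0.45 (0.110). The call was kept only without Ctsk-Cre;Ano1fl/fl replicate 1, with -0.86 (adjusted p = 0.00628 by limma). It was also lost with no filter on dim probes (adjusted p = 0.117 by limma) and in the methods' t-test, adjusted or not.

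C1qb read 15.31, 15.23 and 15.13 log2 signal in Ano1fl/fl and 15.02, 14.76 and 14.64 in Ctsk-Cre;Ano1fl/fl cells. All Ctsk-Cre;Ano1fl/fl values lay below the lowest Ano1fl/fl value, by a small margin for replicate 1. The log2 difference was -0.42 (SE 0.11, 95% interval -0.69 to -0.14), with an adjusted p of 0.0235 by limma. The call was lost without Ano1fl/fl replicate 1 (-0.37, adjusted p = 0.0710 by limma) or replicate 2 (-0.41, 0.0666), and without Ctsk-Cre;Ano1fl/fl replicate 2 (-0.39, 0.0663) or replicate 3 (-0.33, 0.0623). It was lost as well with no filter (adjusted p = 0.0506 by limma) and in the adjusted form of the methods' t-test.

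C1qc read 16.14, 15.97 and 15.96 log2 signal in Ano1fl/fl and 15.74, 15.61 and 15.42 in Ctsk-Cre;Ano1fl/fl cells. The groups were separate, and the log2 difference was -0.44 (SE 0.10, 95% interval -0.69 to -0.18) with an adjusted p of 0.0146 by limma. This call held without any single array and under each alternative in processing or test, though not where more than 2-fold was asked for as well. A second, dim probe listed under C1qc carries an Ensembl transcript accession that was not matched to RefSeq. It read 5.73, 5.66 and 6.03 in Ano1fl/fl and 3.98, 4.24 and 3.72 in Ctsk-Cre;Ano1fl/fl cells, and 5 of its 6 spots stood well above background. Its log2 difference was -1.83 (adjusted p = 0.000289 by limma over all probes), and the mean over both probes was -1.13.

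The chains were also compared with one another within arrays. The log2 difference between groups in C1qa minus C1qb was -0.21 (exact permutation test, two-sided, p = 0.3, n = 3 and 3), and in C1qa minus C1qc it was -0.19 (exact p = 0.4). For C1qb minus C1qc it was 0.02 (exact p = 0.7). With 3 arrays against 3 this test cannot give a p below 0.1, and adjusted over these 3 comparisons by the Benjamini-Hochberg method the values are 0.6, 0.6 and 0.7. As a description, the distance between centred log2 profiles over the 6 arrays was 0.114 for C1qb and C1qc, the closest pair among the 9 genes, and 0.425 for C1qa and C1qb. All of these distances share the same 6 arrays.

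C1s1 encodes C1s, the protease of the C1 complex that cleaves C4 and C2. It read 5.22, 4.30 and 4.70 log2 signal in Ano1fl/fl and 8.15, 7.55 and 7.43 in Ctsk-Cre;Ano1fl/fl cells. Every Ctsk-Cre;Ano1fl/fl value was far above every Ano1fl/fl value, opposite in direction to the C1q chains. This gave a log2 difference of 2.97 (SE 0.29, 95% interval 2.27 to 3.66), or 7.82-fold, with an adjusted p of 0.000425 by limma. With normexp background correction, which adds an offset that damps dim probes, it was 1.61. C1s1 was dim in Ano1fl/fl cells, and its other 2 probes, for which the array gives predicted or Ensembl transcripts, stayed at background throughout.

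**Figure D2:**
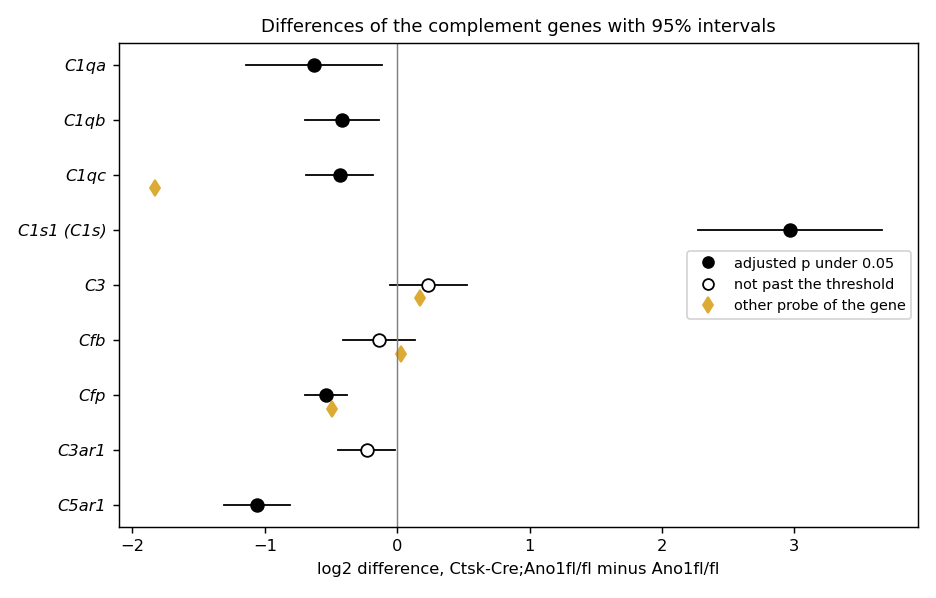
Log2 difference between Ctsk-Cre;Ano1fl/fl and Ano1fl/fl (horizontal axis) for the 9 complement genes (rows), with 95% intervals as bars, filled circles for an adjusted p under 0.05 by limma, open circles for genes not past the threshold, and diamonds for other probes of the gene that were above background. The difference for C1s1, 2.97, lies on the other side of 0 from the 5 genes that were lower, which span -1.06 to -0.42.

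C3 is the component on which all branches converge. Its brightest probe read 16.57, 16.28 and 16.57 log2 signal in Ano1fl/fl and 16.88, 16.61 and 16.63 in Ctsk-Cre;Ano1fl/fl cells. The ranges were separate by a narrow margin. The log2 difference was 0.24 (SE 0.12, 95% interval -0.06 to 0.53) and did not pass the threshold (adjusted p = 0.148 by limma). The second probe, printed above, read 15.31, 14.88 and 15.07 against 15.47, 15.15 and 15.14, and its ranges overlapped with a difference of 0.17. Without normalization between arrays the C3 difference was -0.04.

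Cfb, or factor B, supplies the protease of the alternative pathway C3 convertase. It read 14.54, 14.37 and 14.40 log2 signal in Ano1fl/fl and 14.51, 14.19 and 14.20 in Ctsk-Cre;Ano1fl/fl cells, where replicate 1 lay within the Ano1fl/fl range. This left a log2 difference of -0.14 (SE 0.11, 95% interval -0.41 to 0.13, adjusted p = 0.335 by limma). The second probe gave 0.03, with overlapping ranges. The interval leaves room for a fall of up to 0.41 and a rise of up to 0.13.

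Cfp, or properdin, stabilises that convertase. It read 16.71, 16.76 and 16.77 log2 signal in Ano1fl/fl and 16.25, 16.21 and 16.16 in Ctsk-Cre;Ano1fl/fl cells. The groups were far apart for their spread, with SDs of 0.04 in both (n = 3 each). Cfp differed by -0.54 on the log2 scale (SE 0.06, 95% interval -0.69 to -0.38), with an adjusted p of 0.000984 by limma. The second probe read 14.88, 14.81 and 14.88 against 14.57, 14.26 and 14.24, also without overlap, and differed by -0.49. The call held without any single array and under each alternative in processing or test, but Cfp was below the 2-fold limit.

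C3ar1 and C5ar1 encode the receptors for the anaphylatoxins C3a and C5a, through which myeloid cells are attracted and activated. C5ar1 read 13.12, 12.94 and 12.89 log2 signal in Ano1fl/fl and 11.87, 12.09 and 11.83 in Ctsk-Cre;Ano1fl/fl cells. All Ctsk-Cre;Ano1fl/fl values lay well below all Ano1fl/fl values. The log2 difference was -1.06 (SE 0.10, 95% interval -1.31 to -0.81), or 2.08-fold lower, with an adjusted p of 0.000449 by limma. It lay between -1.14 and -0.99 with single arrays left out, and the call was kept each time.

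C3ar1 read 13.10, 13.31 and 13.15 log2 signal in Ano1fl/fl and 12.89, 13.06 and 12.92 in Ctsk-Cre;Ano1fl/fl cells. The ranges were separate by a small margin. The log2 difference was -0.23 (SE 0.09, 95% interval -0.45 to -0.01) with an adjusted p of 0.0706 by limma. C3ar1 stood near the threshold. Under 6 of 13 alternatives in processing or test it passed, at limma adjusted p values from 0.0317 to 0.0491 in 5 of them, and the last was the unadjusted form of the methods' t-test. The difference between the receptors was not tested.

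**Figure D3:**
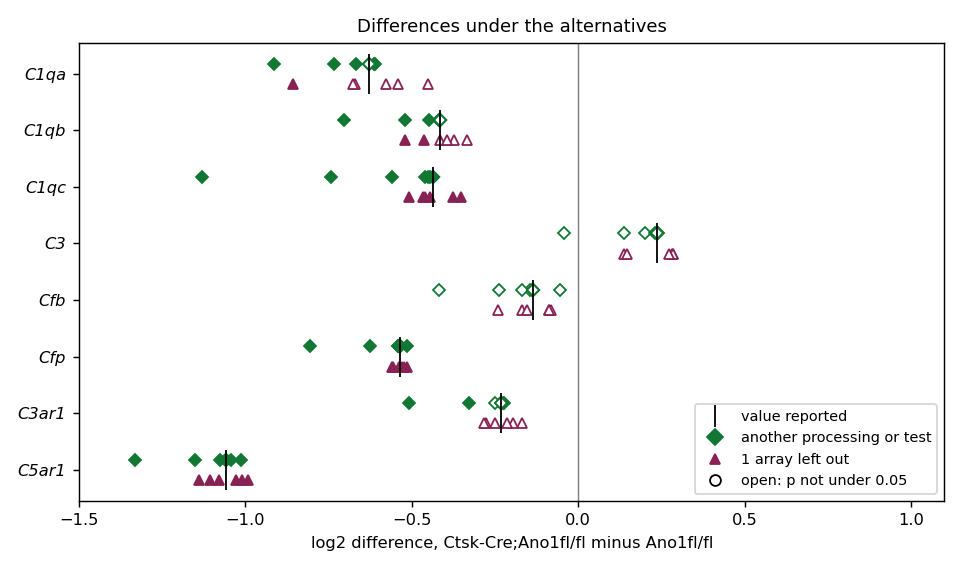
Log2 difference (horizontal axis) of the 8 complement genes found by name (rows) as reported (black bar), under other processing or tests (green diamonds) and with 1 array left out (purple triangles), open where p was not under 0.05. C5ar1, Cfp and C1qc show filled symbols throughout, whereas most triangles of C1qa and C1qb are open.

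Scaling moved the median difference. Over all genes it was -0.12 with 75th percentile scaling and -0.30 with no normalization between arrays, beside -0.06 as reported. Without normalization C1qb was at -0.70, C1qc at -0.74, Cfp at -0.81, C3ar1 at -0.51 and Cfb at -0.42, each further below 0 than reported, as the median of all genes was.

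**Figure D4:**
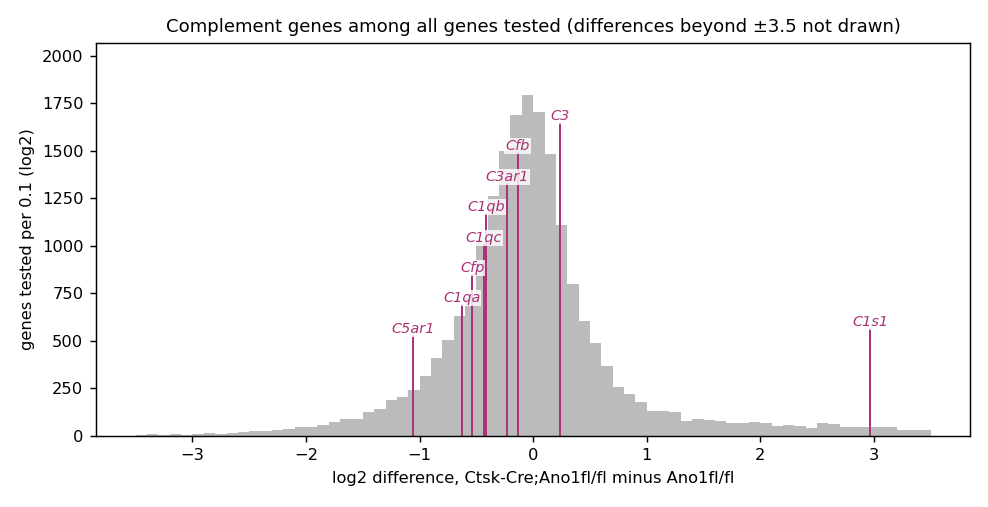
Histogram of the log2 difference between Ctsk-Cre;Ano1fl/fl and Ano1fl/fl (horizontal axis) over the genes tested (vertical axis, genes per bin), with the 9 complement genes as vertical lines whose heights carry no value. C5ar1 had a difference that 6.68% of all genes equalled or exceeded downward, and C1s1 one that 2.98% equalled or exceeded upward.

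The bases before the start of transcription are shown for C1qb and C1qc, the pair whose profiles were closest, and for C5ar1, the member that differed most among those that were lower. They were read from RefSeq promoters of GRCm38.p6, a later build than the array's, and 7 of the 9 genes had an entry. C1qa and Cfb had none. Each sequence gives the 250 bases before the start on the minus strand, and capitals mark matches on either strand to GAGGAA, the core of PU.1 sites, TGCTGA, part of Maf sites, TTNNGNAA, a core of C/EBP sites, an interferon-stimulated element, GAAA repeated after 2 free bases, or an NF-kappa B site. None of these overlapped another in the 3 sequences.
C1qb, chr4:136886201-136886450: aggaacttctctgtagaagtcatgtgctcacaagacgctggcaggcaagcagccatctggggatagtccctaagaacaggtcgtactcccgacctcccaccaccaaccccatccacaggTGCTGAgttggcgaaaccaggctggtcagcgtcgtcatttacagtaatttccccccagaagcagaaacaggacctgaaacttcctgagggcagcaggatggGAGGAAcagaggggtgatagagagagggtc
C1qc, chr4:136892915-136893164: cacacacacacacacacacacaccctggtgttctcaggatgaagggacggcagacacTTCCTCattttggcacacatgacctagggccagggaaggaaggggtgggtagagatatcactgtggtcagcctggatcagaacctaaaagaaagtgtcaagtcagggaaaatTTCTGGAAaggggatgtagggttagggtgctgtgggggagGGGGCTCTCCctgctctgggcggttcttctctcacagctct
C5ar1, chr7:16259339-16259588: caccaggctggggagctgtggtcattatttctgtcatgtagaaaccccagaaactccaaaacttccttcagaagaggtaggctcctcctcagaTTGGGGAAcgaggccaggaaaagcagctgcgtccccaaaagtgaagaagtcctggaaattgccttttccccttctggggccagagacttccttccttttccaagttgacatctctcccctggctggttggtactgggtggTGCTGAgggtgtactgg
GAGGAA stood 30 bases before the C1qb start and, on the other strand, 193 bases before the C1qc start, and 23.3% of the 32851 promoters in the table held it. TGCTGA stood 131 bases before the C1qb start and 17 before that of C5ar1, beside 16.1% of all promoters. It also matched at 144 bases before C3ar1 and 182 before C3, both on the other strand. TTNNGNAA matched C1qc at 81 bases, C5ar1 at 157, C1s1 at 242 and 52 before its first listed start, and C3 at 70, 58 and 45 bases, where the last reads on both strands, and 36.8% of promoters held it. The NF-kappa B site matched C1qc at 41 bases (7.3% of promoters), the interferon-stimulated element matched no member (3.0%), and Cfp held no match to any of the 5. These motifs were chosen with the members' values known, and a match describes letters and not a bound site.

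Other genes of the system were taken from a list of 53, of which 34 were tested. Among these, 14 were higher and 8 lower by limma's adjusted p, and 12 did not pass, with a median difference of 0.16. Masp1 and Csmd1 among the higher and C9 and Colec11 among the lower were well above background in 1 group only, and so could enter the test only through the group where they are high. With probes well above background on all 6 arrays the calls numbered 12 higher and 7 lower. With no normalization between arrays the split was 8 higher and 9 lower, and over all genes 2564 and 6989 in place of 4839 and 5987. None of the 22 called genes changed direction under the 4 other scalings or sources of values. The counts by branch that follow rest on few genes each, and stand beside the 23.4% of all genes called higher and the 29.0% called lower.

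In the classical branch 5 of 6 tested genes were higher and 1 was lower, beside 23.4% and 29.0% of all genes. C1s2, a near copy of C1s1 beside it on chromosome 6, read 5.22, 4.75 and 4.92 log2 signal in Ano1fl/fl and 7.98, 7.38 and 7.09 in Ctsk-Cre;Ano1fl/fl cells, a difference of 2.52 (1.36 with normexp and 1.77 with the series matrix). At the best ungapped offset the C1s1 and C1s2 probes could be compared over 50 bases, and they differed at 31 of them. Whether either probe also binds the other transcript was not tested. The C1r protease genes of the same neighbourhood, C1ra and C1rb, differed by 0.36 (adjusted p = 0.0263 by limma) and 0.74 (0.00395).

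C2, the protease partner of C4 and a neighbour of Cfb on chromosome 17, was higher by 0.81. C4b, which encodes the other subunit of that convertase, read 8.67, 8.45 and 8.48 log2 signal in Ano1fl/fl and 7.50, 6.99 and 6.69 in Ctsk-Cre;Ano1fl/fl cells, without overlap. The difference was -1.47 (adjusted p = 0.00184 by limma), and its other probe gave -1.04. C4a, a near copy in the same region, stayed near background on all 6 arrays. Genes that neighbour Cfb thus lay on both sides of 0, and Cfb itself did not pass the threshold.

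In the lectin branch 2 of 5 tested genes were higher and 3 lower, with 1 of each at background in the other group. Masp1, a protease of this branch, was not well above background in Ano1fl/fl cells and was at least 14.4-fold higher in Ctsk-Cre;Ano1fl/fl cells. As the mean over all its probes the difference was 0.82, and with normexp background correction it was 1.94, both below that limit. Fcna and Fcnb, which encode sugar-binding ficolins, differed in opposite directions, by 0.54 and -2.02. The second Fcnb probe gave -0.86 and the mean over both was -1.44. Of the collectins, Colec12 differed by -0.51, and Colec11, which was not well above background in Ctsk-Cre;Ano1fl/fl cells, was at least 1.57-fold lower. With normexp and with the series matrix Colec11 was at -0.28 and -0.54, both smaller than its limit. These lower limits set the mean of the brighter group against the higher, on each dim array, of the probe's own signal and the lowest signal well above background.

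Of the terminal components, which form the membrane pore, 3 were tested and C9 alone passed. C9 was not well above background in Ctsk-Cre;Ano1fl/fl cells and was at least 3.60-fold lower. With normexp and with the series matrix its log2 difference was -0.66 and -1.04, both smaller than that limit. C7 and C8g differed by 0.17 and -0.19 and did not pass. The alternative pathway protease Cfd was not bright enough to be tested.

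Of the regulators that restrain complement, 1 of 5 soluble ones was higher, 1 lower and 3 not past the threshold, and 3 of 6 membrane ones were higher and 3 not past it, where 23.4% of all genes were higher. Cd55, which speeds the decay of convertases on cell membranes, read 9.85, 10.12 and 9.77 log2 signal in Ano1fl/fl and 13.13, 13.14 and 13.04 in Ctsk-Cre;Ano1fl/fl cells, a difference of 3.19 with no overlap. Serping1, which encodes the inhibitor of C1r and C1s, read 8.15, 7.75 and 6.81 against 10.77, 10.55 and 10.20, a difference of 2.94. Cd59a, which blocks assembly of the pore, was higher by 0.74. Csmd1, a large membrane protein with complement control repeats, was not well above background in Ano1fl/fl cells and was at least 2.89-fold higher. As the mean over its probes the log2 difference was 1.12, and with normexp it was 0.40, both below that limit. Clu, the soluble regulator clusterin, differed by -0.98, and by -0.48 as the mean over its probes. Cd46, a membrane cofactor for the cleavage of C3b, was at -0.78 and did not pass (adjusted p = 0.391 by limma). It read 7.21, 4.70 and 4.53 log2 signal in Ano1fl/fl and 4.45, 4.78 and 4.88 in Ctsk-Cre;Ano1fl/fl cells. Its difference thus rests on Ano1fl/fl replicate 1.

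Among other receptors 3 of 9 were higher, 2 lower and 4 not past the threshold, a share of calls near the 52.4% of all genes. C5ar2, the second receptor for C5a, read 9.74, 9.81 and 9.81 log2 signal in Ano1fl/fl and 8.29, 8.14 and 8.48 in Ctsk-Cre;Ano1fl/fl cells. It differed by -1.49. Both C5a receptors were thus lower without overlap, where 29.0% of all genes were called lower and 64.0% did not overlap. Itgax, the alpha chain of complement receptor 4, was higher by 2.55, whereas Itgam and Itgb2, which form complement receptor 3, differed by 0.10 and 0.15 and did not pass. Without normalization between arrays Itgam and Itgb2 were at -0.19 and -0.14, and the other Itgam probe gave -0.27. Cr2 was higher by 0.70. Calr, which encodes calreticulin, was higher by 0.67, and Cd93, once described as a C1q receptor, differed by -0.75.

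**Figure D5:**
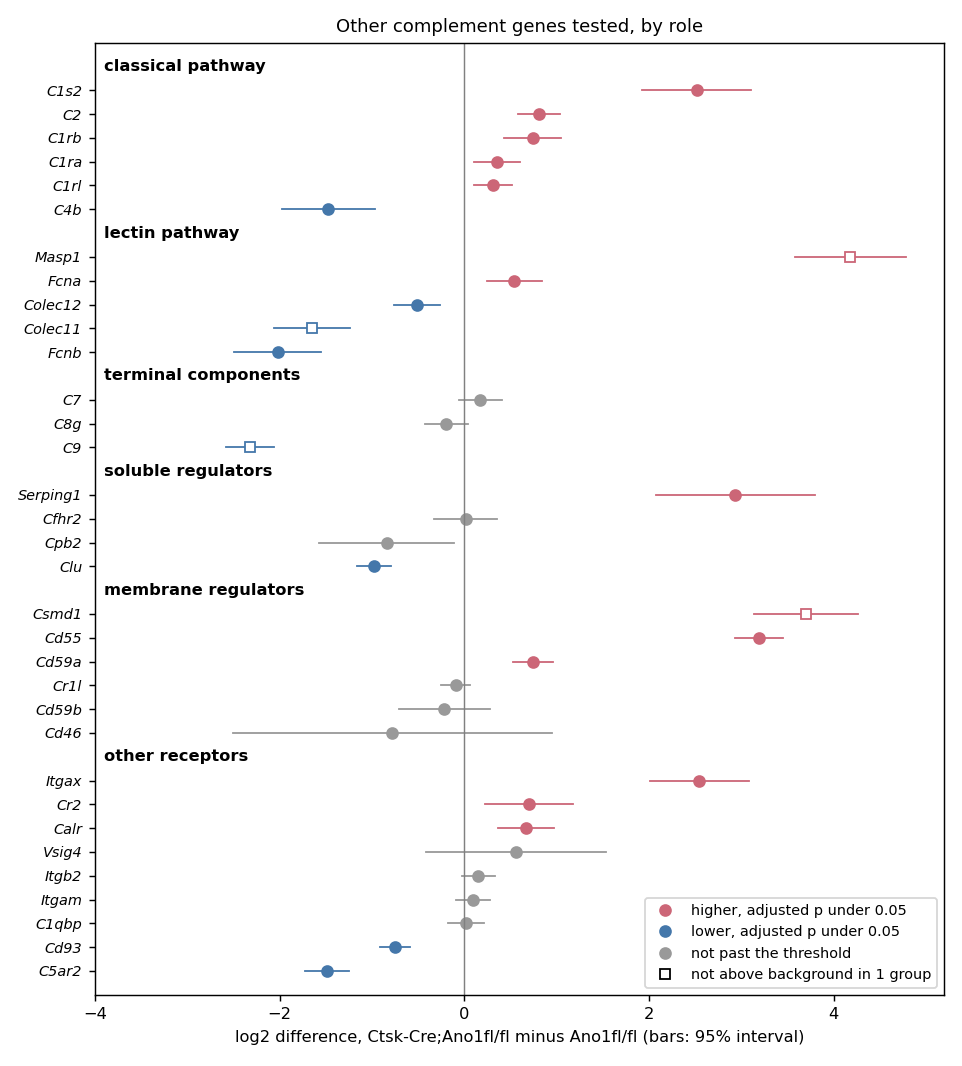
Log2 difference between Ctsk-Cre;Ano1fl/fl and Ano1fl/fl with 95% intervals (horizontal axis) for other complement genes tested (rows, grouped by role, 1 gene not drawn), in red where higher, blue where lower and grey where not past the threshold, with open squares for genes at background in all samples of 1 group. Higher calls, 14 in all, are spread over all roles drawn except the terminal components.

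Markers of the cells that such cultures can hold also differed between the groups, and their part in the complement results was not tested. Calls over all genes, 23.4% higher and 29.0% lower, stand beside the counts that follow. Of 13 osteoclast genes 12 were higher and 1, Tnfrsf11a, lower in Ctsk-Cre;Ano1fl/fl cells. Acp5, with the highest signal of its list, differed by 0.84, Ctsk by 3.17 and Mmp9 by 4.36. The summed signal of all 13 lay between 178390 and 192630 in Ano1fl/fl and between 559490 and 630810 in Ctsk-Cre;Ano1fl/fl cells. Of 12 tested macrophage genes 3 were higher, 4 lower and 5 not past the threshold, with a median difference of 0.05 and sums of 551860 to 572440 and 689440 to 781370. Such sums take in untested genes of a list and are weighted to its brightest probes. Here the group means of Marco went from 14.2 to 17.2 and those of Adgre1 from 16.1 to 16.9. Lyz2, with the highest signal of its list, differed by 0.13 and did not pass, Csf1r was at -0.04, and Cx3cr1 and Mrc1 were at -4.62 and -1.36. Marco, Adgre1 and Msr1 were higher by 3.01, 0.80 and 0.75. Of 12 neutrophil genes 8 were lower and 2 higher, and sums were 333990 to 351840 against 234910 to 285620. S100a9, with the highest signal of its list, differed by 0.20 and did not pass, whereas Mpo, Elane, Prtn3 and Retnlg differed by -3.41, -3.25, -3.46 and -3.68. Mmp8 and Ltf were higher by 0.76 and 0.33, Ngp differed by -0.30, and Camp was at -0.12 and did not pass. Of 20 tested stromal and osteoblast genes 15 were higher and 2 lower, with sums of 26947 to 29187 against 113240 to 160180. Sparc had the highest group mean of this list and differed by 4.82. The 2 lower genes were Lepr and Runx2, and Sp7, Thy1 and Igfbp5 did not pass. Of the defining genes Lum and Pdgfra stayed at background in all Ano1fl/fl samples, as Cd163 of the macrophage list did in both groups, and Bglap, which encodes osteocalcin, was well above background on 1 array of 6.

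The genes whose profiles over the 6 arrays were most like those of the members are given as a description. Distance was taken between log2 values centred on each gene's mean. Nearest to C1qa were Fads1, Emilin1 and Foxi2, to C1qb Plod1, Mprip and Zfp933, and to C1qc Ctnnbip1, Bin2 and Plod1. Plod1 thus stood near both C1qb (0.0769) and C1qc (0.0725). Nearest to Cfp were Snrpb2, Rnf40 and Gpx1, to C5ar1 Ino80b, Cdk20 and Entpd7, and to C3ar1 Msl3, Arl9 and Ssr1. For C3 they were Cct6b, Scaf4 and Plxna3, for Cfb Oraov1, Nisch and Safb2, and for C1s1 Phldb2, Heph and Mxra7. The distances of these genes lay between 0.0614 and 0.486.

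The 6 arrays lay on 1 slide, and 33480 to 34951 of 59305 transcript spots were well above background on each, with none saturated. Correlations of log2 values were 0.995 to 0.997 within groups and 0.947 to 0.951 between them.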

How the data were processed

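The authors extracted total RNA, labelled it with Cy3 and hybridised 6 Agilent mouse arrays. The deposited scanner files hold linear intensity values from Agilent Feature Extraction 10.7.1.1, with background subtracted and no normalization between arrays, and annotation in mm9. The deposited series matrix holds the median intensity of each spot. Here log2 of the processed signal was taken and quantile normalized, the algorithm that the methods name, outlier spots were treated as missing, spots of a probe were averaged, and 14 of 56605 probes were dropped for lack of a value on some array. A gene took its probe with the highest mean and entered the test if, in 1 group or both, all 3 arrays had this probe well above background. Groups were compared with limma 3.58.1 in R 4.3.3, with Benjamini-Hochberg adjustment over 20645 genes and 95% intervals per gene. Scripts were tested on simulated data. Other software was Python 3.11.15 with matplotlib 3.10.9 for plots.

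The members, the lists of other complement and marker genes and the motifs were chosen with earlier results of these data known. The genes named are all members with every probe, in each role of the list the 3 largest rises and 3 largest falls past the threshold with groups that do not overlap, the neighbours of C1s1 and Cfb, the 3 genes nearest to each member in profile, and the brightest markers. Other genes were named after their values were seen. Alternatives concerned scaling, background correction (normexp, offset 50), the series matrix, the filter, the choice of probe, outlier spots, the test, the threshold, a replicate block and leaving out arrays. The values of 2 genes of these lists are not reported here.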

Additional observations from a re-analysis of the deposited data

How the results depend on the processing

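With other processing, other tests and single arrays left out, C5ar1, Cfp, C1qc and C1s1 kept their direction and their call, except that C1s1 has no value as the mean of all probes, since most of its probes were below background. C3 alone changed sign, to -0.042 with no normalization between arrays. The members called lower numbered 5. They were 6 with 75th percentile scaling, no normalization, normexp, the series matrix or limma with trend and robust settings, and 7 where probes were counted. They were 3 with no filter on dim probes, 3 in the methods' t-test after Benjamini-Hochberg adjustment (5 at its unadjusted threshold) and 1 where more than 2-fold was asked for as well. With arrays left out in turn they numbered 3 to 5, and members called higher 0 to 0. The other complement genes gave 14 higher and 8 lower calls, with 8 higher under no normalization, 24 higher where probes were counted in place of genes, and 6 higher and 5 lower with more than 2-fold. Leaving out arrays gave 11 to 14 higher and 8 to 9 lower. Over all genes 4839 were higher and 5987 lower. No normalization gave 2564 higher, probes in place of genes 9747 lower, and more than 2-fold 2039 higher and 1485 lower, and leaving out arrays gave 4104 to 4338 higher and 4876 to 5239 lower. The cause of these changes was not tested, apart from the stricter threshold, the smaller number of arrays and the larger number of probes, which act by construction.

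Replicates share numbers across groups. Correlations of the deviations of same-numbered arrays were 0.004, -0.06 and -0.08, and those of differently numbered arrays ran from -0.12 to 0.18. With so few arrays these values cannot tell whether the numbers mark pairs of littermates. With the replicate block the members gave 5 lower and 0 higher calls, the other complement genes 13 higher and 8 lower, and all genes 4200 higher and 5079 lower. Values of dim probes moved with the background correction, and normexp gave 1.94 for Masp1, 0.40 for Csmd1, -0.66 for C9, -0.28 for Colec11, 1.36 for C1s2 and 0.34 for C1rb. With no normalization C1ra was at 0.15, Fcna at 0.33, Calr at 0.38 and Colec12 at -0.77.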
